A study of Sus scrofa with 25 samples.

Results

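The genes described here encode the subunits of the proteasome and were followed in muscle of 25 pigs on 3 vitamin D3 diets. Members were the genes whose Ensembl pig symbol begins with PSMA, PSMB, PSMC or PSMD followed by a number and which had a count in at least 13 of the 25 libraries. Of 25879 gene identifiers analysed, 33 met this rule. They comprised 6 alpha subunits and 5 standard beta subunits of the core, 3 inducible beta subunits, 6 ATPases and 10 other subunits of the regulatory particle, and 3 chaperones that help to assemble that particle (PSMD5, PSMD9 and PSMD10). Just inside the rule stood PSMB3, with a count in 17 libraries, and PSMA1, with a count in 20. Just outside it stood PSMC3IP, with a count in 10 libraries, whose symbol shares the letters although its protein is not a proteasome subunit. PSMA8, the alpha subunit of the testis form of the core, and PSMB11, the beta subunit of its thymus form, had 0 counts in the 25 libraries. PSMA6, PSMB5, PSMB6 and PSMD2 are not analysed here, because no gene identifier of the count files was paired with those symbols.

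The proteasome is the barrel-shaped protease that degrades proteins tagged with ubiquitin. Alpha subunits form the gated outer rings of the core, and beta subunits form the inner rings, in which PSMB5, PSMB6 and PSMB7 carry the cutting sites. Under interferon, PSMB8, PSMB9 and PSMB10 can take the places of PSMB5, PSMB6 and PSMB7 and give the immunoproteasome, a form that is abundant in leucocytes. The regulatory particle caps the core: its PSMC ATPases unfold the substrate and push it inwards, while its PSMD subunits bind ubiquitin, remove it or hold the particle together. In muscle the ubiquitin and proteasome system is a main route of breakdown of contractile proteins and is known for its part in muscle wasting.

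The sows were Polish Large White and the boars Landrace, and the offspring of a litter were spread over the diets. From day 85 of life, for 90 days, they ate feeds of equal protein and energy with vitamin D3 at 0 IU/kg (control, 8 pigs), 5000 IU/kg (D5000, 8 pigs) or 10000 IU/kg (D10000, 9 pigs). Muscle RNA of each pig gave 1 library of 3' ends of mRNA, numbered here by animal as in the labels. Which muscle was sampled, and the sex and litter of the pigs, is not given in the sources used here. P-values measure the spread between pigs, each with 1 library.

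The libraries held between 3310507 and 15177976 gene counts, and reads assigned to genes made up 24.9% to 70.6% of the counted reads. The share was under 40% in 3 libraries, D5000 replicate 18 and D10000 replicates 2 and 7. It averaged 58.4% ± 8.76 (SD, n = 8) in the control, 51.8% ± 12.6 (SD, n = 8) in D5000 and 53.5% ± 13.1 (SD, n = 9) in D10000. Skeletal muscle markers summed to between 76600 and 261300 CPM (read counts scaled to the library total) in 24 libraries and to 13790 CPM in D10000 replicate 27. In that library 7 fat-cell markers summed to 11190 CPM, against 31.9 to 259 CPM elsewhere. Leucocyte markers were low: 12 of them summed to a median of 193 CPM in the control, 248.5 in D5000 and 179.5 in D10000, and CD3E, CD3D and CD8A had medians under 1 CPM over the libraries. The highest leucocyte sum, 612 CPM, was that of D10000 replicate 27. Liver transcripts reached 27410 CPM in D10000 replicate 7, 23920 CPM in D5000 replicate 18 and 23010 CPM in D10000 replicate 2. No clear gap set these 3 apart in liver transcripts, which elsewhere ran from 1967 CPM (D10000 replicate 27) to 16930 (control replicate 23) and 19890 CPM (D5000 replicate 11). The 4 libraries that stand apart below are D10000 replicate 27, for its fat-cell transcripts, and the 3 with a share under 40%. For several fold changes that moved with these 4 libraries, values without 1 or all of them are also given. Spreads and correlations are over all 25 libraries unless stated. In bulk RNA, fewer cells of a type and less RNA per cell cannot be told apart.

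Subunits of 1 complex, built in fixed proportions, had transcript levels that spanned a 613-fold range of mean CPM. The reads come from the end of each transcript, so CPM was not divided by gene length. How well the end of each gene is annotated, and how many of its reads align to several places, can also set its level, and their part was not tested. Together the members took 0.157% to 0.361% of the gene counts of a library. Mean CPM reached 100 or more in 10 members, lay between 10 and 100 in 16 and was under 10 in 7, with a median of 57.1 over the members. The highest mean was that of PSMB1, a beta subunit without a cutting site, at 307.5 CPM ± 89.9 (SD, n = 25), with libraries from 169.8 to 506 CPM. PSMA7, an alpha subunit, followed at 191 CPM ± 65.0 (SD, n = 25), with libraries from 88.1 to 345. PSMD1, the large scaffold subunit at the base of the regulatory particle, stood at 177 CPM ± 48.9 (SD, n = 25), with libraries from 95.4 to 289. The ranges of these 3 subunits overlapped.

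At the low end, PSMB3, a beta subunit without a cutting site, averaged 0.501 CPM ± 0.532 (SD, n = 25) and was at 0 in 8 libraries, where 0 counts still allow up to 0.198 to 0.528 CPM. PSMA1, an alpha subunit, averaged 2.53 CPM ± 2.13 (SD, n = 25) and was at 0 in 5 libraries, where up to 0.334 to 0.906 CPM is allowed. The assembly chaperone PSMD5 averaged 3.69 CPM ± 3.98 (SD, n = 25). These limits assume 3 counts and cover counting error only. The highest count of PSMB3 in any library was 19 reads, and it was the 1 member that did not pass the filter on low counts, so 32 members were tested. The 6 ATPases lay close together, between 60.1 CPM (PSMC4) and 161 CPM (PSMC5), whereas the alpha subunits ran from 2.53 to 191 CPM.

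**Figure D1:**
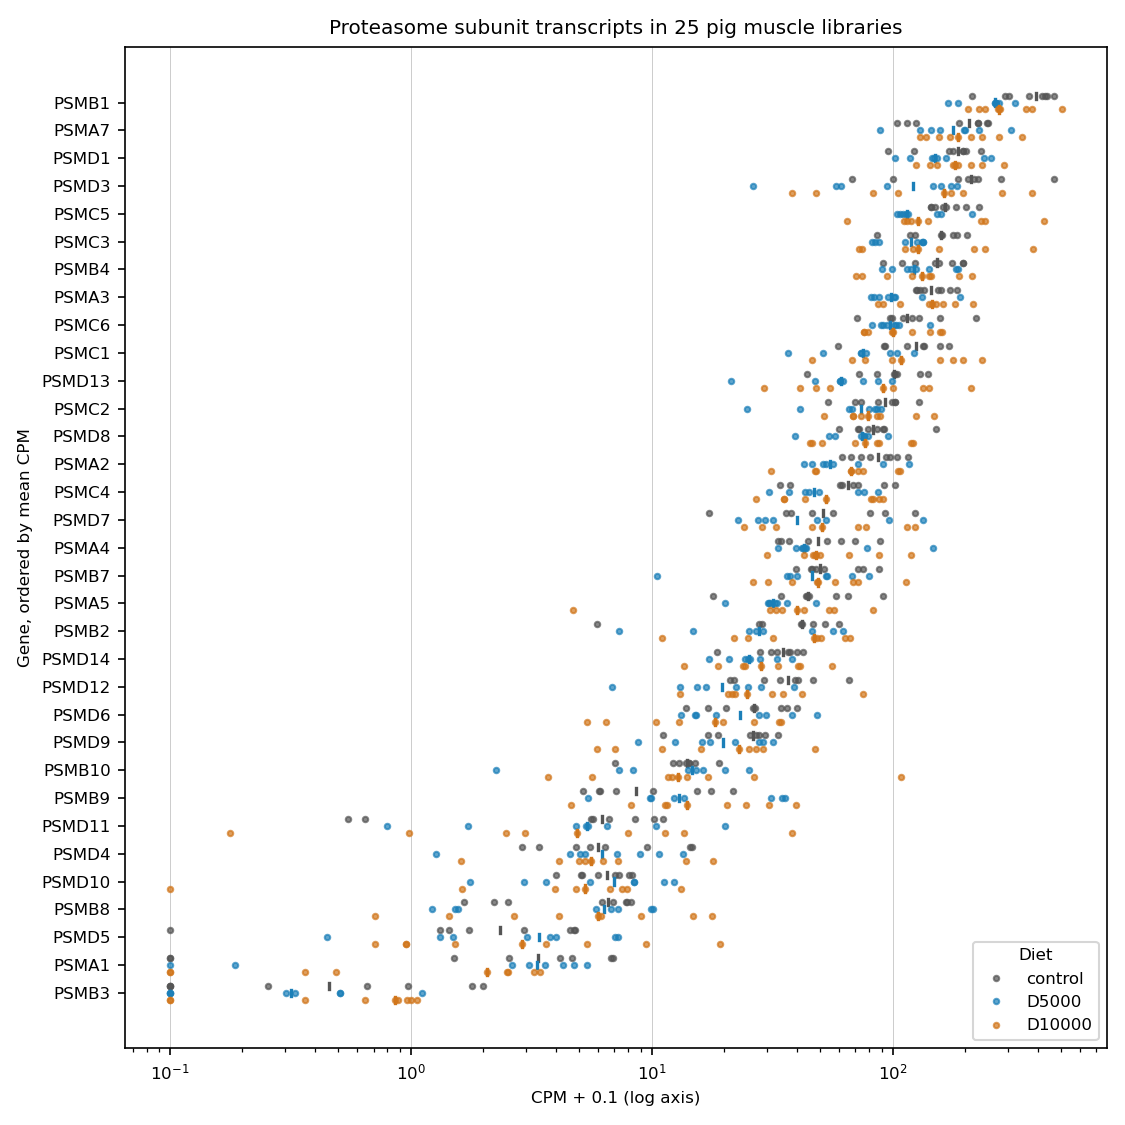
CPM plus 0.1 on a log axis for each of the 33 subunit genes, ordered by mean CPM, with 1 point per library in the colour of its diet and a vertical tick at the diet median; points at 0.1 are libraries with 0 counts. PSMB1, PSMA7 and PSMD1 lead, PSMB3, PSMA1 and PSMD5 are lowest, and the points of the 3 diets overlap in each row.

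The median member varied less between pigs than the median tested gene. The SD of log2 CPM over the 25 libraries, after scaling by the trimmed mean of M values (TMM), had a median of 0.74 over the 32 tested members and of 0.90 over all 10992 tested genes. The 2 sets were not matched for level, on which this SD also depends, and the part of level was not tested. PSMD1 was the steadiest at 0.30, followed by PSMA7 at 0.37 and PSMA4, another alpha subunit, at 0.38. The widest spreads were those of PSMA1 at 1.81, of PSMD11 at 1.57, a subunit of the lid of the regulatory particle, and of PSMD5 at 1.30. Without D10000 replicate 27 these 3 members had SDs of 1.81, 1.37 and 1.29. All 3 had mean CPM under 10, where counts are few. PSMD11 ran from 0.0778 CPM in D10000 replicate 27, which is 1 read, to 38.1 CPM in D10000 replicate 2, and its diet medians were 6.09, 5.29 and 4.81 CPM at 0, 5000 and 10000 IU/kg. PSMD5 ran from 0 CPM in control replicate 23 to 19.03 CPM in D10000 replicate 2, with medians of 2.25, 3.32 and 2.79 CPM. PSMA4 was more even, with medians of 48.9, 42.6 and 48.2 CPM, yet its highest values, 147 and 119 CPM, came from D5000 replicate 18 and D10000 replicate 2, both with a low share of assigned reads. In CPM, without TMM, PSMA4 averaged 57.1 ± 28.3 (SD, n = 25), wider than PSMB7 at 53.8 ± 21.9 (SD, n = 25). Its place among the steadiest therefore depends on the measure of spread.

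At 5000 IU/kg, subunits of both the core and the regulatory particle stood below the control, but no single member passed the test against the spread between pigs. Of 32 tested members, 28 were lower, where 49% of all tested genes were, and the median log2 fold change was -0.32 against 0.01 over all tested genes. By edgeR's quasi-likelihood test with Benjamini-Hochberg adjustment, 0 members passed (0% of all tested genes), and the smallest adjusted p was 0.999. At an unadjusted p under 0.05 there were 5 members, each of them lower; of all tested genes 3.38% met that mark and 1.23% met it while lower. DESeq2 and limma-voom passed 0 members as well and also gave 5 at an unadjusted p under 0.05. All 6 ATPases were lower, with a median of -0.44, as were all 4 tested standard beta subunits, with a median of -0.31. Of the alpha subunits 5 of 6 were lower (median -0.32), and of the 10 non-ATPase subunits 9 were (median -0.31). The 3 assembly chaperones had a median of -0.02. PSMB9, PSMD5, PSMA4 and PSMD11 stood above the control, at 0.63 ± 0.37 (SE), 0.24 ± 0.71, 0.02 ± 0.24 and 0.02 ± 0.68 on the log2 scale. With limma-voom PSMA4 and PSMD11 stood just below it, at -0.015 and -0.0053.

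PSMC1, an ATPase of the ring that opens the core's gate, had the smallest p of the members. It ran from 59.3 CPM over a median of 124 to 171 in the control, from 36.6 over 75.5 to 122 in D5000, and from 46.02 over 108 to 235 in D10000. All 8 D5000 pigs lay below the control median, although only 2 lay below the lowest control, so the groups overlapped. Its log2 fold change at 5000 IU/kg was -0.67 ± 0.28 (SE; edgeR unadjusted p = 0.0241, adjusted p = 0.999), and without any 1 library it kept between -0.74 and -0.57.

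PSMB1, the most abundant member, ran from 214 CPM over a median of 392 to 465.9 in the control, from 169.8 over 267 to 321 in D5000, and from 205 over 277 to 506 in D10000. Again all 8 D5000 pigs were below the control median and 2 were below the lowest control. The log2 fold change was -0.61 ± 0.26 (SE; edgeR unadjusted p = 0.0253, adjusted p = 0.999).

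PSMD3 and PSMD12 are subunits of the lid, the part of the regulatory particle that frees the substrate of its ubiquitin. PSMD3 ran from 67.45 CPM over a median of 211 to 466.5 in the control, from 26.3 over 121 to 184 in D5000, and from 38.1 over 163 to 379.5 in D10000. All 8 D5000 pigs lay below the control median and 3 lay below the lowest control. The log2 fold change was -0.98 ± 0.43 (SE; edgeR unadjusted p = 0.0303, adjusted p = 0.999), and -0.65 with the percent of reads assigned to genes fitted beside diet. PSMD12 ran from 21.0 CPM over a median of 36.7 to 65.9 in the control, from 6.74 over 19.5 to 39.0 in D5000, and from 13.0 over 24.8 to 75.4 in D10000. Of the D5000 pigs 7 of 8 were below the control median and 4 were below the lowest control. Its log2 fold change was -0.84 ± 0.38 (SE; edgeR unadjusted p = 0.0331, adjusted p = 0.999).

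PSMA3, an alpha subunit, ran from 125 CPM over a median of 145 to 184.5 in the control, from 81.0 over 98.1 to 190.4 in D5000, and from 86.8 over 145 to 215 in D10000. Here 6 of 8 D5000 pigs lay below the lowest control, while D5000 replicate 29 lay above the highest. The log2 fold change was -0.56 ± 0.26 (SE; edgeR unadjusted p = 0.0388, adjusted p = 0.999).

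These counts and sizes moved with single libraries and with read assignment. Without control replicate 16 the number of members at an unadjusted p under 0.05 was 0 instead of 5, it was 2 without D5000 replicate 6 or without D5000 replicate 18, 3 without D5000 replicate 11, and 7 without control replicate 23. With the percent of reads assigned to genes fitted beside diet, the median was -0.18, with 27 members lower and 3 at that mark; without D10000 replicate 27 and the 3 libraries of low share it was -0.23, with 29 lower and 6 at that mark.

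**Figure D2:**
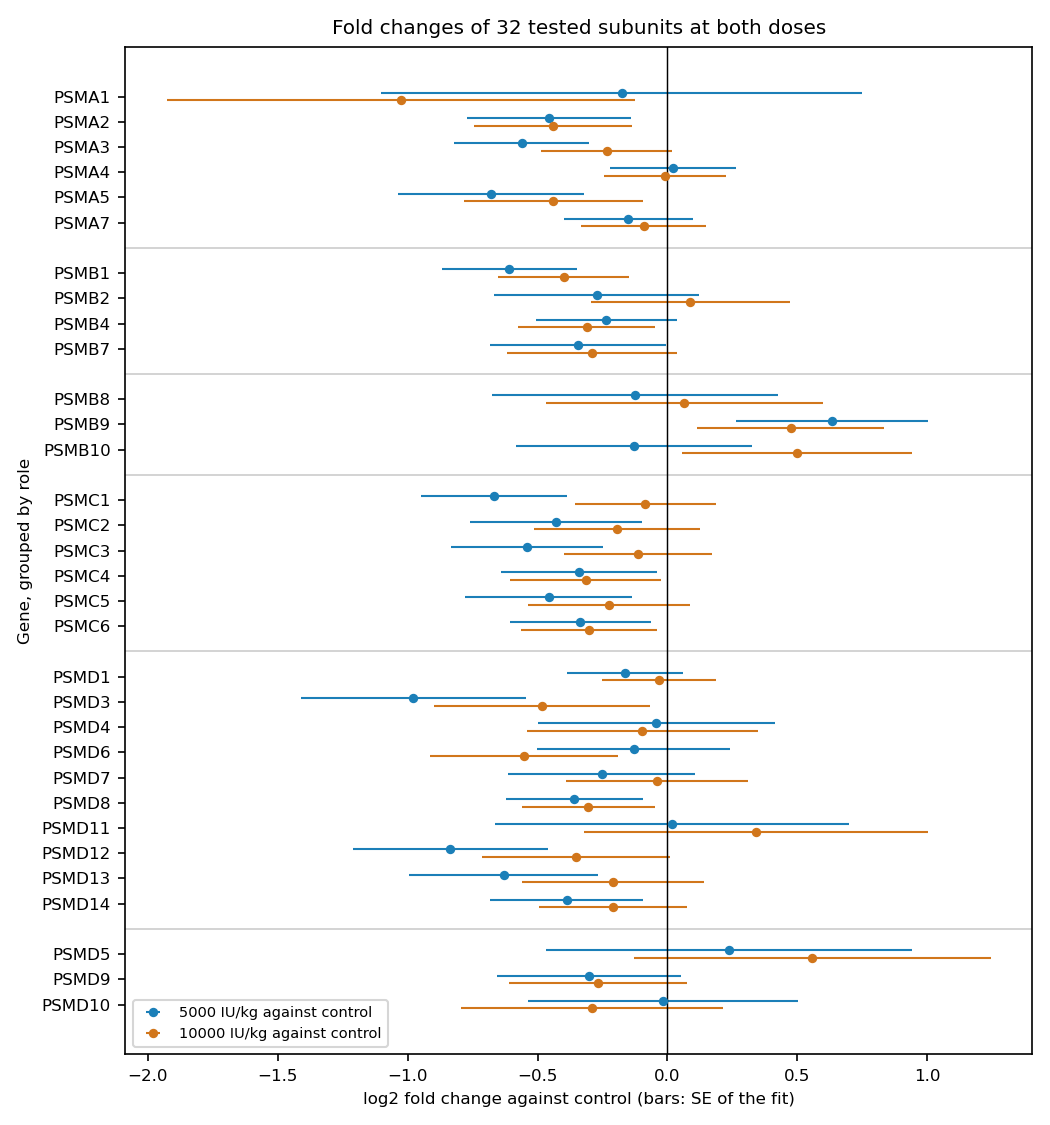
Log2 fold change against control of the 32 tested subunits, grouped by role from alpha subunits at the top to assembly chaperones at the bottom, at 5000 IU/kg and at 10000 IU/kg. Bars are the SE derived from edgeR's test. Most points lie left of 0 at both doses, 28 and 26 of 32, while PSMB9 lies right of 0 at both; both doses are set against the same 8 control pigs.

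At 10000 IU/kg most subunits of the core and the regulatory particle also stood below the control. Of 32 tested members 26 were lower, where 42.8% of all tested genes were, and the median was -0.22 against 0.07 over all tested genes. All 6 alpha subunits (median -0.34) and all 6 ATPases (median -0.21) were lower, and 9 of 10 non-ATPase subunits were (median -0.21), while the 3 inducible beta subunits were all higher (median 0.48). Without D10000 replicate 27 only PSMB9 of these 3 was higher, at 0.31, with PSMB10 at -0.21 and PSMB8 at -0.17. Some signs in these counts were not firm. The alpha subunit PSMA4 stood at -0.008 ± 0.23 (SE) and turned above 0 in 12 of 32 alternatives. The ATPase PSMC1 stood at -0.08 ± 0.27 and turned in 4. PSMD11, the non-ATPase subunit that was higher, stood at 0.34 ± 0.66, and at -0.94 by limma-voom. By edgeR's test 0 members passed (0% of all tested genes), with a smallest adjusted p of 1.00, and 0 members had an unadjusted p under 0.05 (2.39% of all tested genes did). DESeq2 also gave 0 members on both counts, and limma-voom gave 0 after adjustment and 1 before it, as edgeR did without D10000 replicate 30. Both doses are compared with the same control pigs, so the 2 sets of fold changes are not independent.

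The 5 members with the smallest p at 10000 IU/kg were PSMB1, PSMD6, PSMA2, PSMB9 and PSMA5. PSMB1 stood at -0.40 ± 0.25 (SE), with 8 of 9 pigs below the control median and 1 below the lowest control; it was at -0.26 by total counts alone and at -0.15 without the 4 libraries that stand apart. PSMD6, a lid subunit, ran from 13.8 CPM over a median of 26.5 to 39.85 in the control, from 13.1 over 23.1 to 48.2 in D5000, and from 5.28 over 18.3 to 34.2 in D10000. Of the D10000 pigs 4 of 9 lay below the lowest control, and the log2 fold change was -0.55 ± 0.36 (SE), or -0.09 without the 4 libraries. PSMA2, an alpha subunit, ran from 61.5 CPM over a median of 87.1 to 115 in the control, from 42.7 over 54.6 to 117 in D5000, and from 31.1 over 66.9 to 107 in D10000. Its groups overlapped, and the log2 fold change of -0.44 ± 0.31 (SE) was -0.07 without the 4 libraries. PSMA5, also an alpha subunit, ran from 17.8 CPM over a median of 44.4 to 91.15 in the control, from 19.95 over 31.6 to 47.8 in D5000, and from 4.59 over 40.1 to 82.9 in D10000. The lowest of these was D10000 replicate 27, and the log2 fold change of -0.44 ± 0.35 (SE) was -0.27 without it and -0.22 without control replicate 16.

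The size of the shift at 10000 IU/kg depended on scaling and on a few libraries. Scaled by total counts alone, the members' median was -0.05 with 19 of 32 lower, and the median over all tested genes was 0.24, so the distance between these medians was -0.29, as it was with TMM (-0.285). The members' median was -0.11 without D10000 replicate 2, -0.13 without D10000 replicate 7, and -0.09 with 22 of 32 lower without the 4 libraries. It was -0.13 with 25 lower when the percent of reads assigned to genes was fitted beside diet, and -0.33 with 28 lower by limma-voom.

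Between the 2 supplemented diets the subunits were mostly higher at the larger dose. Of 32 members 25 were higher, where 54.6% of all tested genes were, and the median was 0.18 against 0.04 over all tested genes. All 6 ATPases (median 0.23) and 8 of 10 non-ATPase subunits (median 0.20) were higher. By edgeR's test 0 members passed (0% of all tested genes), with a smallest adjusted p of 0.999; DESeq2 and limma-voom passed 0 as well. At an unadjusted p under 0.05 there was 1 member (2.94% of all tested genes), PSMC1, at 0.58 ± 0.27 (SE; edgeR unadjusted p = 0.0417, adjusted p = 0.999); limma-voom gave 0 members there, and there were 0 without D10000 replicate 27, as there were when D5000 replicate 5, 6, 11 or 25 or D10000 replicate 1, 7, 13, 20 or 26 was the library left out. Next came the ATPase PSMC3, which ran from 85.7 CPM over a median of 159 to 202 in the control, from 82.3 over 119 to 134 in D5000, and from 72.2 over 127 to 381 in D10000. The highest value was that of D10000 replicate 27, and the log2 fold change of 0.43 ± 0.29 (SE) was 0.25 without it. PSMB10 stood at 0.63 ± 0.44 (-0.09 without D10000 replicate 27), PSMD12 at 0.49 ± 0.37 (0.23 without D10000 replicate 13) and PSMA3 at 0.33 ± 0.25. With limma-voom the members' median in this comparison was 0.06 with 19 of 32 higher, and it was 0.10 without D5000 replicate 11 and 0.09 without D10000 replicate 13. A joint edgeR test of both doses passed 0 members (0% of all tested genes) and gave 0 at an unadjusted p under 0.05 (2.66% of all tested genes); DESeq2 gave 2 and limma-voom 0 at that mark. PSMC1 had the smallest p of that joint test, 0.0534 before and 1.00 after adjustment by edgeR.

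The inducible beta subunits of the immunoproteasome were present in all 25 libraries at low levels. PSMB8, PSMB9 and PSMB10 summed to between 14.5 and 43.3 CPM in the control (median 29.1), between 15.1 and 69.6 in D5000 (median 38.3) and between 17.5 and 165.5 in D10000 (median 33.7). PSMB9, which replaces PSMB6, ran from 5.08 CPM over a median of 8.51 to 21.7 in the control, from 5.33 over 12.8 to 35.7 in D5000, and from 4.52 over 13.9 to 39.6 in D10000. In each supplemented diet 3 pigs lay above the highest control, and 7 of 8 D5000 pigs lay above the control median. Its log2 fold change was 0.63 ± 0.37 (SE; edgeR unadjusted p = 0.0957, adjusted p = 0.999) at 5000 IU/kg and 0.48 ± 0.36 (SE; unadjusted p = 0.196, adjusted p = 1.00) at 10000 IU/kg. The first was 0.41 without D5000 replicate 24, and the second was 0.31 without D10000 replicate 27 and 0.11 without the 4 libraries. Fitting the percent of reads assigned to genes beside diet gave 0.47 for the first and 0.34 for the second. Among the D5000 pigs above the highest control were replicate 18, with 31.2 CPM of PSMB9 and the highest leucocyte sum of that diet at 453.5 CPM, and replicates 11 and 24, with leucocyte sums of 294.5 and 298 CPM. The 3 D10000 pigs above the highest control were replicates 2, 7 and 27, all among the 4 libraries that stand apart, with 24.5, 30.5 and 39.6 CPM of PSMB9 and leucocyte sums of 282, 496.6 and 612 CPM. Leucocyte sums close to those of D5000 replicates 11 and 24 and D10000 replicate 2 also occurred with less PSMB9. Control replicate 9 had a sum of 283.1 CPM with 5.95 CPM of PSMB9. D10000 replicate 13 had 287.7 CPM with 11.2 CPM of PSMB9. Control replicate 23, the highest control for PSMB9, had a sum of 412.9 CPM. The part of leucocytes in the level of PSMB9 was not tested beyond the relation with PTPRC given below.

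PSMB8, which replaces PSMB5, ran from 1.56 CPM over a median of 6.47 to 8.06 in the control, from 1.13 over 6.23 to 10.0 in D5000, and from 0.609 over 5.91 to 17.7 in D10000. The diets overlapped nearly throughout, and its log2 fold changes were -0.12 ± 0.55 (SE) at 5000 IU/kg and 0.07 ± 0.53 at 10000 IU/kg, the second being -0.17 without D10000 replicate 27. PSMB10, which replaces PSMB7, ran from 6.91 CPM over a median of 14.0 to 18.95 in the control, from 2.165 over 14.6 to 25.2 in D5000, and from 3.625 over 12.8 to 108 in D10000. The top value was that of D10000 replicate 27, and the next in that diet was 26.6 CPM. The log2 fold change of PSMB10 was -0.13 ± 0.45 (SE) at 5000 IU/kg and 0.50 ± 0.44 at 10000 IU/kg, and the second was -0.21 without that library. PSMB7 itself, the standard subunit with the trypsin-like cutting site, ran from 39.5 CPM over a median of 49.7 to 87.9 in the control, from 10.4 over 46.4 to 79.6 in D5000, and from 26.2 over 48.75 to 113 in D10000. Its log2 fold changes were -0.34 ± 0.34 (SE) and -0.29 ± 0.33 at the lower and higher dose. The first was -0.17 without D5000 replicate 18, -0.52 without D5000 replicate 6 and -0.11 with the percent of reads assigned to genes fitted beside diet. The second was -0.16 without control replicate 16, -0.055 by total counts alone and -0.051 with that percent fitted. PSMB10 made up 18.8%, 21.95% and 19.4% of the CPM of PSMB10 and PSMB7 together (diet medians at 0, 5000 and 10000 IU/kg), with libraries from 2.65% (D5000 replicate 6) to 60.9% (D5000 replicate 18) and 48.9% in D10000 replicate 27. In the fat-rich library D10000 replicate 27, 10 members had their highest CPM of all libraries, namely PSMB7, PSMB8, PSMB9, PSMB10, PSMC1, PSMC3, PSMC5, PSMD9, PSMD10 and PSMD13, and 4 had their lowest, namely PSMA2, PSMA5, PSMD11 and PSMD14. The share of all genes with their highest or lowest CPM in that library is not given, so these counts only describe the members.

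**Figure D3:**
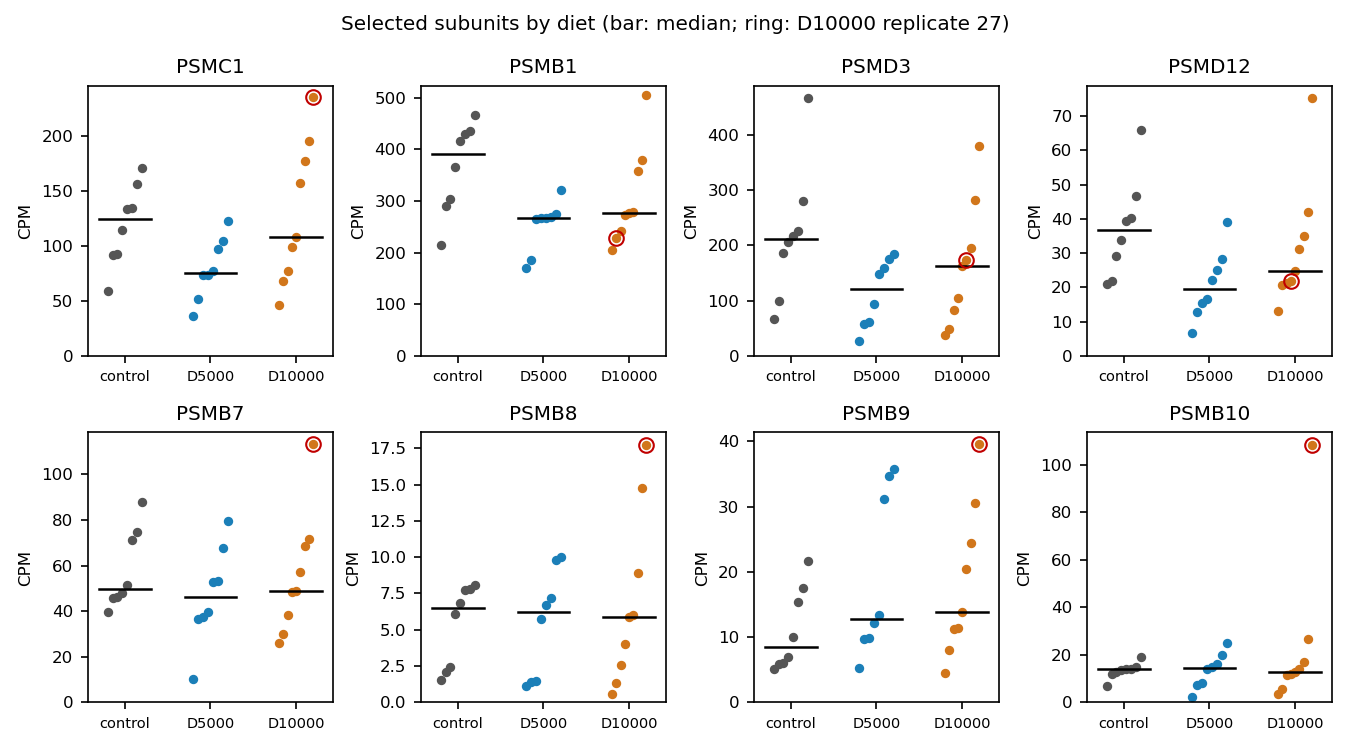
CPM of 8 subunits in each library by diet, sorted within a diet, with a bar at the diet median and a ring around D10000 replicate 27; axes are linear and start at 0. In the upper row the D5000 points of PSMC1, PSMB1, PSMD3 and PSMD12 sit low with overlap, and in the lower row the ringed library tops PSMB7, PSMB8, PSMB9 and PSMB10.

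Taken library by library, the 29 tested members that are not inducible lay above their own mean in most control pigs. The median deviation of these members from their mean log2 CPM (TMM) ran from -0.04 to 0.77 in the control with a median of 0.33, from -0.76 to 0.21 in D5000 with a median of -0.08, and from -1.04 to 0.65 in D10000 with a median of 0.01. It was above 0 in 7 of 8 control, 3 of 8 D5000 and 5 of 9 D10000 pigs, and the ranges of the diets overlapped. The deviation moved with the share of assigned reads: it ran from -1.04 to -0.57 in the 3 libraries under 40% and from -0.07 to 0.77 in the 9 libraries at 60% or more. Without TMM these ranges were -0.53 to -0.08 and -0.59 to 0.70, which overlap. Single members did not follow 1 pattern: in the 3 libraries under 40%, 7 members had their highest CPM (PSMA4, PSMA7, PSMD1, PSMD4, PSMD5, PSMD7 and PSMD11) and 8 had their lowest (PSMB7, PSMC2, PSMC5, PSMD6, PSMD8, PSMD9, PSMD10 and PSMD13). The matching shares over all genes are not given, so these counts too only describe the members.

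**Figure D4:**
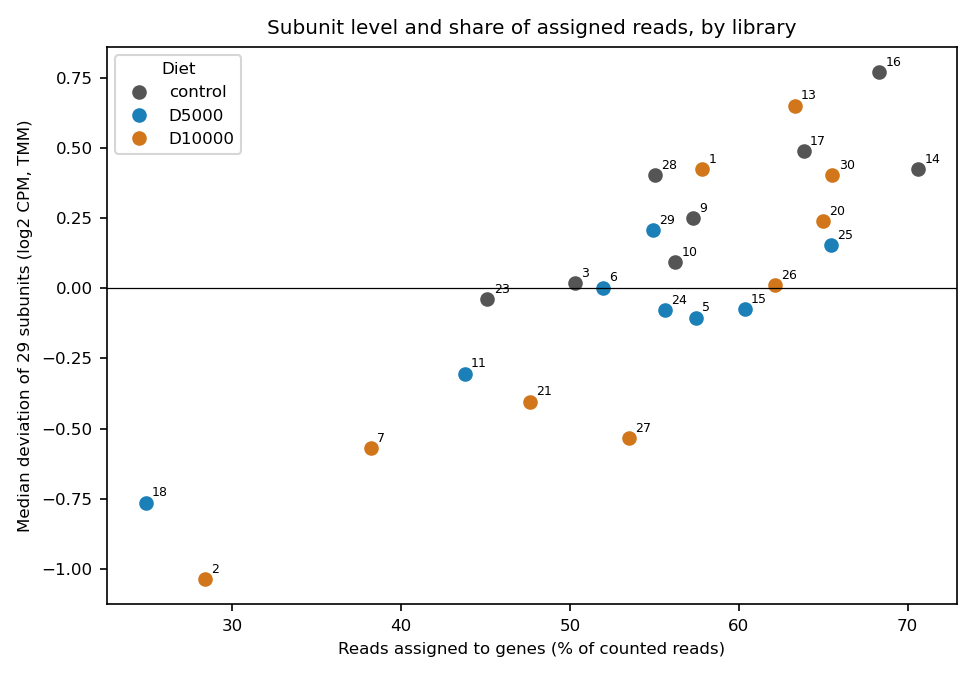
Median deviation of the 29 tested subunits that are not inducible from their mean (log2 CPM, TMM) against the percent of counted reads assigned to genes, with 1 point per library, its animal number and the colour of its diet. Libraries under 40% lie between -1.04 and -0.57, and control libraries lie between -0.04 and 0.77.

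Pairs of subunits had a higher median correlation across pigs than pairs of all tested genes, and the roles differed in it. Pearson r of diet-centred log2 CPM (TMM) over the 25 libraries had a median of 0.21 over pairs of the 32 tested members and of 0.00 over pairs of all tested genes (0.003); libraries, depth and assignment are shared by all pairs, and no p is given. By role the median was 0.52 among the 4 standard beta subunits, 0.46 among the 6 ATPases, 0.27 among the 3 inducible beta subunits, 0.25 among the 10 non-ATPase subunits, 0.00 (-0.004) among the 6 alpha subunits and -0.17 among the 3 assembly chaperones. The highest pair was PSMD8 with PSMD13, both lid subunits, at 0.87, and the lowest was PSMC4 with PSMD7, an ATPase and a lid subunit, at -0.77. Among the 29 tested members that are not inducible, PSMB4 and PSMB1 had the highest median r with the others of that set, 0.54 and 0.505. Within the same set PSMA4 and PSMA7 ran against the rest, with medians of -0.49 and -0.23, and correlated with each other at 0.52. Each had its highest CPM in a library with under 40% of reads assigned to genes. In such libraries the median deviation of the 29 members lay between -1.04 and -0.57. The part of those libraries in these correlations was not tested. The inducible subunits had a median r of -0.08 with the other members, and PSMB9 reached -0.66 with PSMD14, the subunit that removes ubiquitin from substrates.

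**Figure D5:**
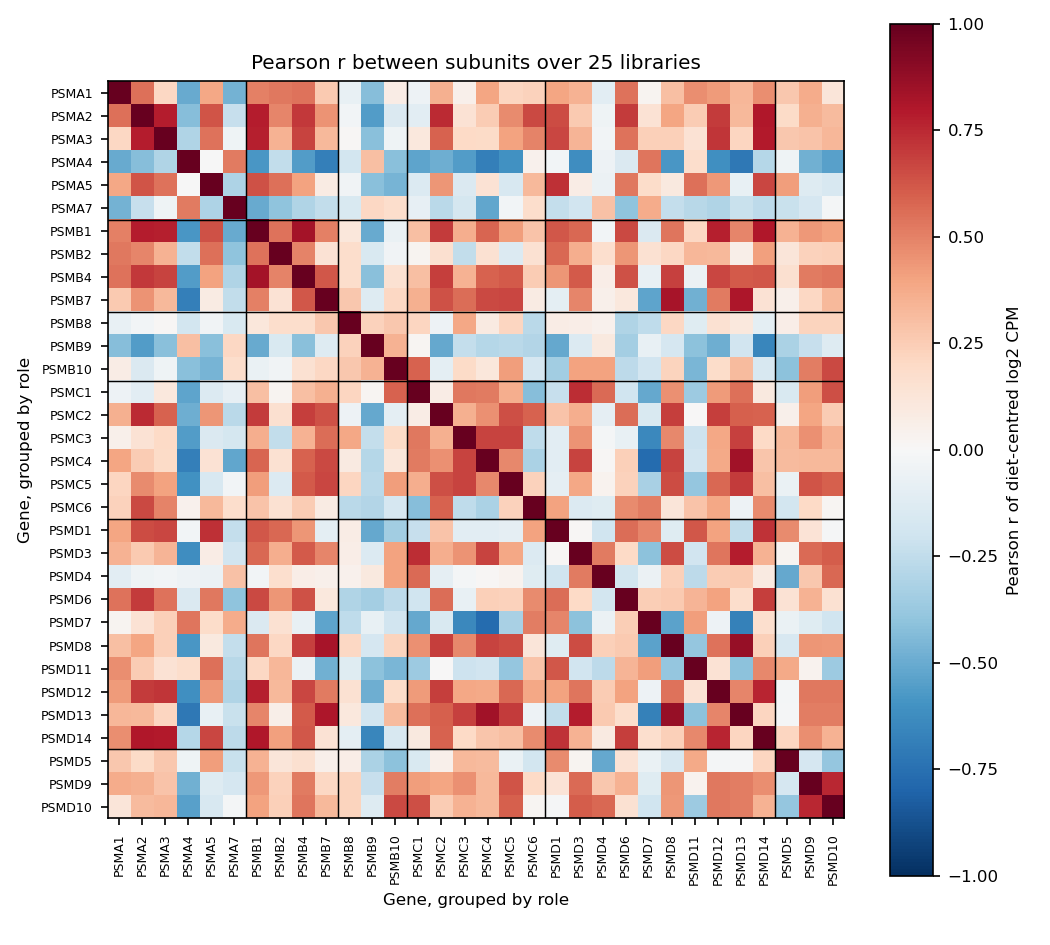
Pearson r of diet-centred log2 CPM (TMM) between the 32 tested subunits over 25 libraries, in role order with black lines between roles and a colour scale from -1 to 1. Beta subunits form red blocks, as do the ATPases apart from PSMC6, which is negative with PSMC1, PSMC3 and PSMC4. The rows of PSMA4, PSMA7, PSMB9 and PSMD7 are mostly blue.

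Of 16 gene pairs listed by role, 14 could be computed, since PSMB5 and PSMB6 had no value. None had an adjusted p under 0.05 (permutation test within diets, 100000 permutations, two-sided). PSMB8 with PSME1, a subunit of the PA28 activator that is also induced by interferon, had the largest correlation, with Pearson r = 0.57 (permutation p = 0.005, adjusted p = 0.07) and Spearman rho = 0.57 (permutation p = 0.00471, adjusted p = 0.0659), and r = 0.58 without the 2 libraries farthest from the median of PSMB8. Without the 4 libraries that stand apart this pair had r = 0.53 and rho = 0.44. PSMB9 with the leucocyte marker PTPRC had r = 0.39 (permutation p = 0.0684, adjusted p = 0.192) and rho = 0.40 (permutation p = 0.0568, adjusted p = 0.163), and r = 0.44 without the 2 farthest libraries. This r was 0.36 without D10000 replicate 27 and 0.22 without the 4 libraries that stand apart. The other inducible subunits differed: with PTPRC, PSMB8 had r = 0.17 (permutation p = 0.445, adjusted p = 0.479) and PSMB10 had r = -0.23 (permutation p = 0.337, adjusted p = 0.393). For PSMB10 it was -0.43 without the 4 libraries. Without TMM, PSMB8 stood at 0.40 and PSMB10 at 0.15 with PTPRC. PSMB8 with PSMB9, which flank TAP1 in the RefSeq annotation of Sscrofa11.1, had r = 0.23 (permutation p = 0.288, adjusted p = 0.393) and rho = 0.19 (permutation p = 0.372, adjusted p = 0.434), and r = 0.50 without the 2 farthest libraries, 0.14 without D10000 replicate 27 and 0.05 without the 4 libraries. PSMD11 with NFE2L1, the factor that drives transcription of proteasome genes when degradation is blocked, had r = 0.47 (permutation p = 0.0318, adjusted p = 0.16) and rho = 0.39 (permutation p = 0.0671, adjusted p = 0.163), and r = 0.48 without the 2 farthest libraries. Without TMM, 5 of the 14 pairs had an adjusted p of r under 0.05: PSMB8 with PSME1 at r = 0.64, PSMB9 with PTPRC at 0.66, PSMB8 with PSME2 at 0.53, PSMB9 with PSMB10 at 0.50 and PSMD11 with NFE2L1 at 0.52.

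Outside the pathway, the genes most like the mean of the 25 tested PSMA, PSMC and PSMD members over the 25 libraries were NDUFB4, a subunit of respiratory complex I, at r = 0.88, GCLM, a subunit of the enzyme that starts glutathione synthesis, at 0.87, ENSSSCG00000009211, which has no symbol in the name table, at 0.87, the small GTPase RAB12 at 0.87, and NSFL1C, a cofactor of the unfolding ATPase VCP, at 0.86. They were picked as the highest of all tested genes, so the values are a description. Without D10000 replicate 27 these values ran from 0.854 to 0.87.

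Other genes of the pathway had smaller median shifts than the subunits. Of 41 listed genes 35 were found and 34 tested, and by edgeR's test 0 passed in any of the 3 comparisons and 0 had an unadjusted p under 0.05. At 5000 IU/kg 24 of 34 were lower (median -0.11) and at 10000 IU/kg 18 were (median -0.06). Between the doses 13 were lower (median 0.10). The difference from the subunits was not tested. By group, the 3 tested assembly chaperones outside the members had medians of 0.24 at 10000 IU/kg and 0.55 between the doses. The 5 activators and inhibitor had -0.27 at 10000 IU/kg. These were larger in size than the subunits' medians there, and the remaining group medians were smaller. Among the activators, PSME1 had diet medians of 25.8, 18.0 and 17.9 CPM at 0, 5000 and 10000 IU/kg and log2 fold changes of -0.54 ± 0.38 (SE) and -0.27 ± 0.37. Its partner PSME2 had medians of 25.7, 24.5 and 31.6 CPM and log2 fold changes of 0.00 ± 0.31 and 0.10 ± 0.30. PSME3 and PSME4, which form other activators, stood at -0.64 ± 0.32 and -0.40 ± 0.26 at 10000 IU/kg, the 2 smallest p-values of the list there. The inhibitor PSMF1 stood at -0.03 ± 0.26 and 0.11 ± 0.25, and POMP, which helps to assemble the core, at -0.17 ± 0.25 and 0.07 ± 0.24. NFE2L1 had medians of 221, 204 and 203 CPM and log2 fold changes of -0.07 ± 0.26 and -0.14 ± 0.26. At 5000 IU/kg the smallest p-values of the list were those of UBA1, the main enzyme that activates ubiquitin, at a log2 fold change of -0.76 ± 0.40 (SE), and of NPLOC4, a cofactor of VCP, at -0.46 ± 0.27. Between the doses they were those of UFD1, another cofactor of VCP, at 0.41 ± 0.28, and of the transcription factor subunit NFYB at 0.50 ± 0.36.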

How the data were processed

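The deposited files held raw counts of reads for each Ensembl pig gene, as whole numbers, in 1 file per pig, and the values show no normalization by the authors. Per the labels' protocols, RNA came from the Total RNA Mini kit and libraries from the QuantSeq FWD kit for 3' ends of mRNA. FastQC is named in the submitters' processing notes. For the aligner, counter, genome build and annotation, nothing is given in the sources used here. The last 5 lines of a file are summary lines and stayed out of totals and tests. The files list 25880 gene identifiers, of which 1 is absent from D10000 replicate 27; 25879 were analysed, and an Ensembl name table gave a symbol to 14856. No sequence was used.

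CPM was taken over all pig genes. Tests used edgeR 4.0.16 in R 4.3.3 on raw counts: filterByExpr (minimum count 10, minimum total 15) kept 10992 genes, libraries were scaled by TMM, and glmQLFit (robust) with glmQLFTest had diet as the only term over all 25 libraries. Benjamini-Hochberg adjustment covered all tested genes, with a threshold of 0.05, and fold changes used a prior count of 0.125. The SE of an edgeR log2 fold change was derived as its absolute value divided by the square root of the F of the quasi-likelihood test. The fit was run on simulated counts with known changes and less spread between libraries than these data have. That run checks the code and not the power of the test here. Correlations used log2 CPM (TMM, prior count 2) centred within diets. Alternatives were DESeq2 1.42.0, limma 3.58.1 (voom), DESeq2's size factors (RLE), no filter, the percent of assigned reads as a covariate and each library left out in turn. Total counts alone, and leaving out 4 libraries at once, were added after seeing the data.

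Values are named for the inducible beta subunits and PSMB7, for the 5 members with the smallest p per comparison, for the 3 highest and 3 lowest by level and by spread, and for a set group of other pathway genes plus the 2 with the smallest p per comparison. Members, lists and this rule were chosen with earlier results of these data known. Depth limits the members under 10 CPM most.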

Additional observations from a re-analysis of the deposited data

Results flagged for a closer look

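In 10 of 99 sets of a member's CPM in a diet, the highest pig lay far from the others by Dixon's test. With normal values and independent sets, chance would flag about 1 in 20, 4.95 here. These sets share libraries and CPM need not be normal, so no excess can be read from the 10. D10000 replicate 27, the library rich in fat-cell transcripts, gave 2 of them, PSMB10 at 108.2 CPM (next pig 26.59) and PSMC5 at 424.5 CPM (next 242.2). D5000 replicate 29 gave 3: PSMA3 at 190.4 CPM (next 132.8), PSMC6 at 142.3 CPM (next 106.5) and PSMB3 at 1.017 CPM (next 0.4097), the last on 9 reads. Libraries with under 40% of reads assigned to genes gave 3: PSMA4 at 147.4 CPM in D5000 replicate 18 (next 78.02), and PSMD11 at 38.06 CPM (next 13.56) and PSMD5 at 19.03 CPM (next 9.348) in D10000 replicate 2. The others were PSMD12 at 75.4 CPM in D10000 replicate 13 (next 41.96) and PSMD8 at 150.9 CPM in control replicate 23 (next 92.29).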

How the results depend on the processing

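The count of members past the adjusted threshold was 0 in each comparison under every alternative run. The members' median fold change kept its sign in each comparison under every alternative run; with each library left out in turn it ran from -0.36 to -0.23 at 5000 IU/kg, from -0.28 to -0.11 at 10000 IU/kg and from 0.09 to 0.21 between the doses. At 10000 IU/kg and between the doses, total counts alone raised the median of all genes by over 0.1, to 0.24 and 0.14. The members at an unadjusted p under 0.05 between the doses numbered 3 without the 4 libraries, and 1 with all; in the joint test they numbered 0 or 1 with each library left out.

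Of the 32 tested members, the sign of the fold change turned under at least 1 alternative in 10 at 5000 IU/kg, in 16 at 10000 IU/kg and in 17 between the doses. Values are given here for the inducible subunits and PSMB7. Total counts alone gave PSMB10 at 0.0021 and PSMB8 at 0.026 at 5000 IU/kg. Without the 4 libraries, PSMB10 was at -0.16 and PSMB8 at -0.42 at 10000 IU/kg, and between the doses PSMB10 was at -0.077, PSMB7 at -0.13 and PSMB8 at -0.34. With single libraries left out, the ranges that crossed 0 were -0.34 to 0.027 (PSMB10) and -0.32 to 0.082 (PSMB8) at 5000 IU/kg, -0.21 to 0.69 (PSMB10) and -0.17 to 0.27 (PSMB8) at 10000 IU/kg, and -0.089 to 0.84 (PSMB10), -0.092 to 0.23 (PSMB7), -0.063 to 0.38 (PSMB8) and -0.33 to 0.062 (PSMB9) between the doses. Gene pairs with an adjusted p under 0.05 numbered 5 without TMM and 0 otherwise; the cause was not tested.

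No paired analysis was possible because animal numbers are not shared between diets and litters are not in the labels. Members under 10 CPM rest on few reads; the highest count of PSMA1 in any library was 75.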
